A study of Mus musculus with 10 samples.

Results

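The transcripts described here are those that mitochondria make from their own DNA, measured by RNA-seq in mouse naive B cells, which have not met antigen, and in their antibody-secreting descendants, plasma cells. The members were all genes of the deposited RNA tables whose symbol starts with mt-. There were 13 of them among 26599 genes, and all 13 encode proteins. The annotation of the mitochondrial chromosome (GENCODE M21, build GRCm38) also holds 2 ribosomal RNA and 22 transfer RNA genes, whose levels were not analysed here, so the shares below are shares among messenger RNAs.

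The series has 10 samples, and the RNA comparison rests on 1 library of each cell type. Naive B cells came from wild-type C57BL/6 spleen, where cells positive for CD23 and IgD were sorted. The plasma library is also labelled wild-type C57BL/6, but its labels conflict on the source. The source name gives cells activated in vitro and then sorted, while the extraction protocol describes bone marrow cells sorted as CD138+ and negative for B220, IgD, CD4, CD8, Gr1 and Ter119. With 1 library per group no difference below has a replicate check, no p-value can be given, and intervals are 95% intervals that cover counting error only.

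Mitochondrial DNA is a small circle with a heavy and a light strand. Each strand is transcribed as a long precursor from which transfer RNAs are cut out, and this cutting frees the messenger RNAs and ribosomal RNAs that lie between them. The proteins are the membrane-embedded core subunits of complex I, complex III, complex IV and ATP synthase. The other subunits of these complexes, and all proteins that copy, transcribe, process and translate mitochondrial genes, are encoded in the nucleus and imported.

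Some of these messages overlap on the DNA, and the sequences of the smallest ones show how their reads can be confused. Of the 13 genes, 12 are encoded in the same direction on the heavy-strand precursor and mt-Nd6 alone lies on the other strand. The 4 sequences that follow are of genes whose shares moved most or whose reads are shared, and of a transfer RNA gene between them. They are GENCODE M21 sequences (build GRCm38, plus strand), and capitals mark the 43 bases that mt-Atp8 shares with mt-Atp6, the 7 bases that mt-Nd4l shares with mt-Nd4, and the first codon of mt-Nd3, which is ATT and not ATG. The transfer RNA gene mt-Tr lies in the gap between mt-Nd3 and mt-Nd4l and is printed in lower case throughout.
mt-Atp8, chrM:7766-7969: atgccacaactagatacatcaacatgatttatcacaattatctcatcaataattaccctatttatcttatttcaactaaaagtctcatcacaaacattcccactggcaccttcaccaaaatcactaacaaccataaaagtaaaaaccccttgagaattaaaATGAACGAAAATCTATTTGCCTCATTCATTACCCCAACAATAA
mt-Nd3, the first 60 bases, chrM:9459-9518: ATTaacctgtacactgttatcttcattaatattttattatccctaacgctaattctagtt
mt-Tr, chrM:9808-9875: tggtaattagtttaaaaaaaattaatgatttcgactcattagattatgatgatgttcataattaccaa
mt-Nd4l, chrM:9877-10173: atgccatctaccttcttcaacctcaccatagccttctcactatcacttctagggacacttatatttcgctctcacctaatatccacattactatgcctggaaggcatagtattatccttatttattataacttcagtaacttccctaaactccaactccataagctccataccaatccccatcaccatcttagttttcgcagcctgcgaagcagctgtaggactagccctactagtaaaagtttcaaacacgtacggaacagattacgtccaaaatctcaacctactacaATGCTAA

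In 3 of the 13 genes the coding sequence stops 1 base past its last whole codon. The stop codon of such a message is completed by adenines added after cutting, which is known for animal mitochondria. The last 30 bases of each are given here with that base in capitals, because these ends are where the poly(A) tail, by which the RNA was purified, begins.
mt-Co3, chrM:9361-9390: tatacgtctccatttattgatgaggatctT
mt-Nd4, chrM:11515-11544: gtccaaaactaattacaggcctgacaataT
mt-Cytb, chrM:15259-15288: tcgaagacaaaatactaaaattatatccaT

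The libraries carried the markers of their labels with exceptions. The summed level of 6 measured naive B cell markers was 5610 TPM (kallisto's measure of level, corrected for transcript length and scaled to the same sum in each library) in the naive library and 465.5 TPM in the plasma library, and that of 7 plasma cell markers was 1031 and 8259 TPM. The gene for CD138, Sdc1, was not higher on the plasma side, at 11.1 TPM in the naive library and 5.38 TPM in the plasma library. Transcripts of other cells were on the naive side: 11 T and NK cell markers summed to 112.2 and 5.16 TPM, 9 neutrophil and monocyte markers to 142.4 and 1.36 TPM, and 6 erythroid markers to 82.5 and 2.29 TPM. Of these, 4 T and NK, 1 neutrophil and monocyte and 4 erythroid markers, among them Cd3e, Trbc1, Trbc2, Elane, Hba-a1, Hba-a2 and Hbb-bs, were listed at 0 in plasma cells. The 4 platelet markers summed to 1.45 and 0.849 TPM, with 3 listed at 0 in plasma cells. Their part in the results below was not tested.

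Mitochondrial messages were far less abundant in the plasma library. Their part of all TPM was 6.52% in the naive library and 1.66% in the plasma library, which is 3.93 times less. Of 36995177 estimated reads in the naive library they held 3.76% (3.75 to 3.76%), and of 43457786 in the plasma library 1.45% (1.45 to 1.46%), 2.58 times less. Immunoglobulin transcripts took 34.8% of TPM in plasma cells and 5.03% in naive B cells and so lowered every other share there. Among the remaining TPM the mitochondrial share was 6.87% and 2.55%, still 2.70 times less. In bulk RNA, fewer mitochondrial messages per cell and more of other RNA per cell cannot be told apart, nor can a mixture of cells.

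The place of the members among all genes changed accordingly. In naive B cells mt-Co1, the catalytic core of complex IV, was the most abundant of all 26599 genes per length, and 5 of the 13 members were among the 20 highest. In plasma cells mt-Co1 ranked 13 and was alone among the 20 highest. Of the 13 members, 10 were among the 100 highest in the naive library and 4 in the plasma library.

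**Figure D1:**
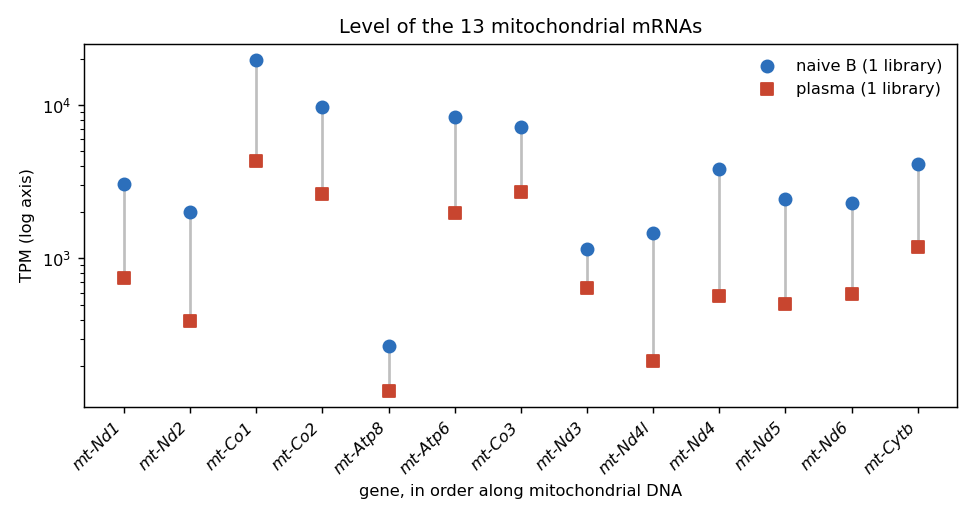
Level of each of the 13 mitochondrial messages in TPM (log axis) in naive B cells (circles) and plasma cells (squares), 1 library each, in the order of the genes along the DNA. Every plasma value lies below its naive value, with the shortest line at mt-Nd3 (1146 and 643 TPM) and the longest at mt-Nd4l (1455 and 215 TPM).

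Complex I, which takes electrons from NADH, has 7 core subunits among the members. The 4 nearest to the set as a whole were mt-Nd1, mt-Nd6, mt-Nd5 and mt-Nd2. mt-Nd1 was at 3042 TPM in the naive library and 742 TPM in the plasma library. mt-Nd5 was at 2444 and 503 TPM, and mt-Nd2 at 2013 and 389 TPM. mt-Nd6, the one message of the other strand, was at 2282 and 585 TPM. All 4 were between 3.90 and 5.18 times lower in plasma cells.

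The other complex I messages lay at the extremes of the set. mt-Nd3 was at 1146 TPM in the naive library and 643 TPM in the plasma library, 1.78 times lower, the smallest difference of the 13. mt-Nd4l was at 1455 and 215 TPM, and mt-Nd4 at 3791 and 571 TPM. These neighbours were 6.78 and 6.64 times lower, the largest differences of the 13, although mt-Nd4l begins 70 bases after mt-Nd3 ends.

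The members of complex IV, which passes electrons to oxygen, were the most abundant of the set in naive B cells together with mt-Atp6. mt-Co1 was at 19422 TPM in the naive library and 4338 TPM in the plasma library. mt-Co2, which receives electrons from cytochrome c, was at 9691 and 2625 TPM. mt-Co3, a structural core subunit, was at 7204 and 2698 TPM. The difference was 4.48 times for mt-Co1, 3.69 times for mt-Co2 and 2.67 times for mt-Co3, so that mt-Co3 passed mt-Co2 and mt-Atp6 and was second in plasma cells. mt-Cytb, the cytochrome b of complex III, was at 4089 and 1188 TPM, 3.44 times lower.

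The ATP synthase members differed most in level. mt-Atp6, part of the proton channel, was at 8384 TPM in the naive library and 1978 TPM in the plasma library, 4.24 times lower. mt-Atp8, a small subunit beside it, was at 268 and 138 TPM, the lowest of the set in both libraries and 1.94 times lower. It rests on 871 and 847 estimated reads over 204 bases, and shares the 43 capital bases above with mt-Atp6.

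These ratios depend on how the libraries are set against each other, and the scale used here was the median gene. The log2 ratio of plasma over naive TPM, with 1 TPM added, was centred on its median over 7495 genes, those at 5 TPM or more in each library, which removed a shift of -0.99. On that scale 7 of 13 members were at least 2-fold lower and 0 were at least 2-fold higher. The same rule, over the 10219 genes reaching 5 TPM in a library, called 22.1% lower and 16.0% higher, and their median was -0.23. The median member was at -1.05.

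The 7 members past 2-fold were mt-Nd4l at -1.77 (-1.85 to -1.71), mt-Nd4 at -1.74 (-1.76 to -1.73), mt-Nd2 at -1.38, mt-Nd5 at -1.29, mt-Co1 at -1.18 (-1.18 to -1.17), mt-Atp6 at -1.10 and mt-Nd1 at -1.05. The 4 between 2-fold lower and no difference were mt-Nd6 at -0.98, mt-Co2 at -0.90, mt-Cytb at -0.80 and mt-Co3 at -0.43. mt-Atp8 at 0.03 (-0.11 to 0.17) and mt-Nd3 at 0.15 (0.11 to 0.20) were no lower than the median gene. Without centring all 13 were below 0 and 11 were at least 2-fold lower, against 57.6% of all genes, and with centring on ribosomal protein genes 11 were, against 51.6%. By counts per 1e6 reads, which are not corrected for length, 4 were at least 2-fold lower, against 21.0%. With TMM factors, edgeR's scaling by a trimmed mean of the count ratios, 2 were at least 2-fold lower against 12.7% of all genes, and with size factors from the median count ratio 2 against 12.1%. Those 2 were mt-Nd4 and mt-Nd4l, at -1.34 and -1.37 with TMM.

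The composition of the set does not depend on any scaling between libraries, and it was partly rearranged. Each message is given here as its percent of the summed TPM of the 13. Shares amounting to 9.58 percentage points moved from the 7 members whose share was lower in plasma cells to the 6 whose share was higher. The order of the members by TPM was largely kept, with a Spearman correlation of 0.868 between the libraries over the 13 genes, which share the libraries and are not independent.

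mt-Co3 and mt-Nd3, which are neighbours on the DNA with 68 bases between them, took more of the set in plasma cells. The share of mt-Co3 was 11.04% in the naive library and 16.2% in the plasma library, and the log2 ratio of these shares was 0.56 (0.54 to 0.57). The share of mt-Nd3 was 1.76% and 3.87%, a log2 ratio of 1.14 (1.09 to 1.19). mt-Atp8 took 0.411% and 0.830% (1.02, interval 0.88 to 1.15). That interval covers counting error only, and the pair of mt-Atp8 with mt-Atp6 did not pass the check described below.

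The share of mt-Nd4 was 5.81% in the naive library and 3.44% in the plasma library, a log2 ratio of -0.76 (-0.78 to -0.74), and that of mt-Nd4l was 2.23% and 1.29% (-0.79, interval -0.86 to -0.72). mt-Nd2 at -0.40, mt-Nd5 at -0.31 and mt-Co1 at -0.19 also took less, and for mt-Co1 this was a change from 29.8% to 26.1%. With mt-Co1, 6 members lay within 0.2 of 0 on the log2 scale. The other values were mt-Cytb at 0.19, mt-Co2 at 0.09, mt-Nd6 at 0.0092, mt-Nd1 at -0.06 and mt-Atp6 at -0.11. For some of these the direction depends on the processing. The ratio of mt-Nd1 was 0.0186 when shares were taken of estimated reads, and that of mt-Nd6 was -0.0641 when mt-Co1 was left out of the set. Across the 13 genes the log2 ratio of shares had a Spearman correlation of -0.41 with length and -0.32 with GC content, and of 0.02 with the order along the DNA. These are descriptions over genes of 1 pair of libraries.

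**Figure D2:**
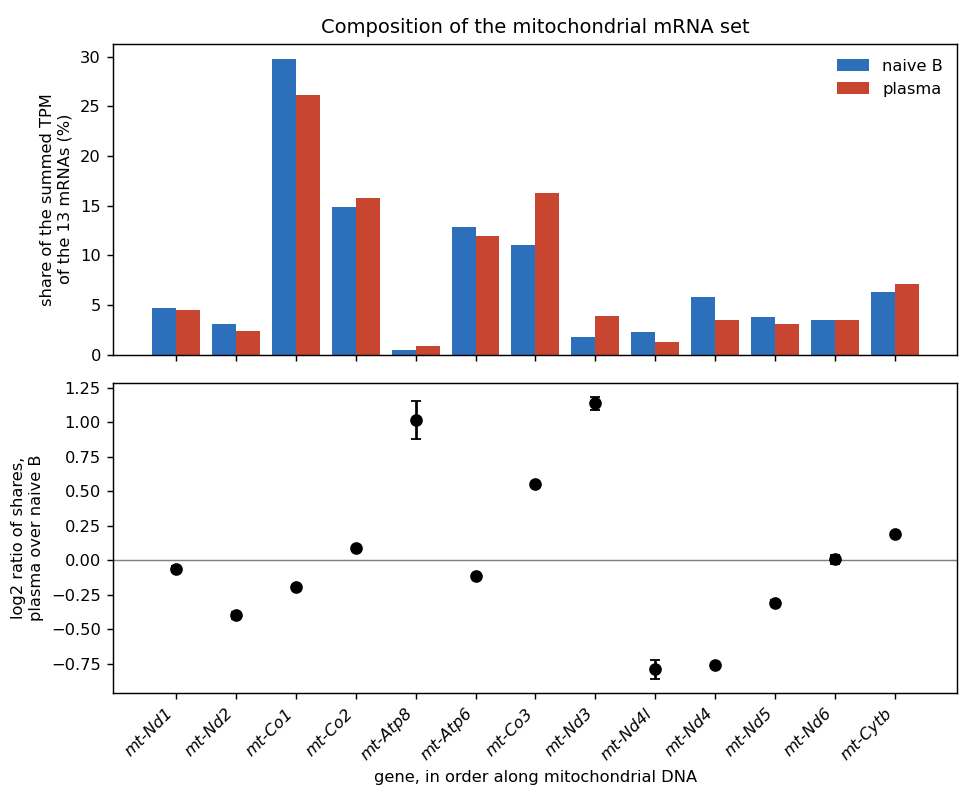
Upper panel: percent of the summed TPM of the 13 messages taken by each, in naive B cells and plasma cells. Lower panel: log2 ratio of these shares, plasma over naive B, with 95% intervals of counting error, where mt-Nd3 at 1.14 and mt-Nd4l at -0.79 stand side by side on the DNA.

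Summed by complex, complex IV messages made up 55.7% of the set in the naive library and 58.2% in the plasma library, complex I messages 24.8% and 22.0%, ATP synthase messages 13.3% and 12.7%, and the complex III message 6.27% and 7.15%. Within complex I the share of mt-Nd3 and those of mt-Nd4 and mt-Nd4l went opposite ways.

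As listed, the message of the light strand kept its share, at 3.50% in the naive library and 3.52% in the plasma library. Its log2 ratio of shares was 0.0092 with an interval of -0.02 to 0.04, and it was 0.0905 when shares were taken of estimated reads. mt-Nd6 overlaps mt-Nd5 on the opposite strand by 14 bases, and the heavy-strand precursor crosses all of it. The protocol marks strand, by dUTP in the second strand, but whether strand was used in counting is not given in the sources used here, and reads of mt-Nd6 and of RNA antisense to it may not have been told apart. The RNA was also purified for poly(A), and how much of mt-Nd6 carries a tail was not measured.

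Pairs that lie on a common message give a check on the values. mt-Nd4l and mt-Nd4 are read from the same RNA in mammals, and their TPM ratio was 0.384 in the naive library and 0.376 in the plasma library, a log2 change of -0.03 (-0.10 to 0.04). mt-Nd3 and mt-Nd4, on separate messages, had a ratio of 0.302 in the naive library and 1.13 in the plasma library, 3.73 times higher, with a log2 change of 1.90 (1.85 to 1.95). The ratio of mt-Co3 to mt-Co1 was 0.371 and 0.622, and that of mt-Co2 to mt-Co1 was 0.499 and 0.605. mt-Atp8 and mt-Atp6 also share a message in mammals, and their ratio was 0.0319 and 0.0697, 2.18 times higher in the plasma library, unlike the ratio of mt-Nd4l to mt-Nd4. This pair did not pass the check, so the change in the share of mt-Atp8 is uncertain. The reason was not tested.

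Nuclear copies of mitochondrial DNA can take part of the reads. Gm10222 lies on chromosome 1 at 24612407 to 24612700 (GRCm38, minus strand) and its 294 annotated bases differ from mt-Nd4l at 0 positions. The deposited tables list it with the same estimated reads as mt-Nd4l, 7574.5 in the naive library and 2109 in the plasma library, so the level of mt-Nd4l is uncertain by what its copy holds. The deposited model of Gm10222 is 297 bases long. Gm10925, listed with 10144 and 10486 reads, carries the name of a copy on chromosome 1 at 24613974 to 24614651 whose 678 bases differ from mt-Atp6 at 0 positions, but the deposited model is 772 bases long under another gene identifier and its own sequence was not used here. Among the 84.1% of listed transcripts with a GENCODE M21 sequence, Gm10222 was the only other transcript that shared a run of 31 bases with a member on either strand.

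With the reads of Gm10222 returned to mt-Nd4l, its ratio to mt-Nd4 became 0.768 in the naive library and 0.752 in the plasma library. With those of Gm10925 returned to mt-Atp6, the share of mt-Atp6 was 13.6% and 13.9%, so that its log2 ratio of shares went from -0.11 to 0.04, its centred ratio went from -1.10 to -0.95, and 6 members in place of 7 were at least 2-fold lower, again against 22.1% of all genes. mt-Atp6 is uncertain to that extent if the reads of Gm10925 are its own, which was not tested. The centred ratio of Gm10925 was 0.12, against -1.10 for mt-Atp6 and 0.03 for mt-Atp8 as deposited. Whether Gm10925 took reads of mt-Atp8 was also not tested.

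**Figure D3:**
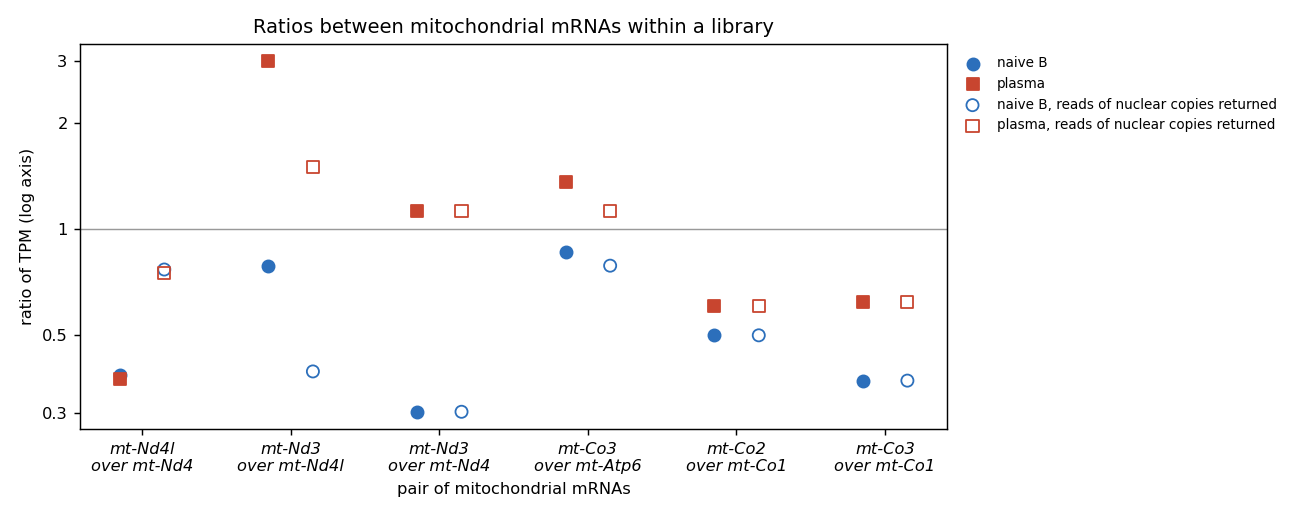
Ratio of TPM between pairs of mitochondrial messages within each library (log axis), as deposited (filled) and with reads of the nuclear copies returned to mt-Nd4l and mt-Atp6 (open). mt-Nd4l over mt-Nd4 is nearly equal in the libraries, 0.384 and 0.376, while mt-Nd3 over mt-Nd4 is 0.302 in the naive library and 1.13 in the plasma library.

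The nuclear genes for the same complexes stood on the other side of the median gene. Of 75 nuclear subunits of complexes I, III and IV and ATP synthase, 40 were at least 2-fold higher on the centred scale against 16.0% of all genes, 0 were at least 2-fold lower, and 73 were above 0. Their median was 1.02 and that of the mitochondrial members -1.05, a difference of -2.07 that centring cannot change, since it shifts every gene alike. All 75 lay above the median member, and 71 lay above mt-Nd3, the highest member. Most of all genes tested also lay above the median member, since only 22.1% were at least 2-fold lower. Their median, -0.23, lay below 0 and below mt-Nd3, and their exact shares above these bars were not counted. Without centring the nuclear median was 0.03, with that of complex III at -0.06, and 3 nuclear subunits were at least 2-fold higher, against 7.75% of all genes. With TMM factors 63 were, against 23.7%, with size factors from the median count ratio 64, against 24.4%, and with centring on ribosomal protein genes 3, against 8.58%.

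The gap was present in each complex. For complex I the summed TPM of the mitochondrial subunits over that of 36 nuclear subunits was 5.76 in the naive library and 1.15 in the plasma library, 5.01 times lower. For complex IV, with 12 nuclear subunits, it was 13.6 and 3.35, 4.06 times lower. For ATP synthase, with 18, it was 2.03 and 0.507, and for complex III, with 9, it was 3.08 and 0.833. Over the 4 complexes it was 5.89 in the naive library and 1.43 in the plasma library. In TPM, without centring, the nuclear sums hardly differed, with 2806 and 3170 TPM for complex I and 2677 and 2888 TPM for complex IV. On the centred scale the medians of these nuclear subunits were 1.06 for complex I and 1.08 for complex IV.

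Single nuclear partners spanned a wide range. In complex I the highest centred ratios were those of Ndufa1 at 2.42 and Ndufv3 at 2.13. Ndufa1 was at 85.5 TPM in the naive library and 233.5 TPM in the plasma library. The lowest ratios were those of Ndufs1, an iron-sulphur subunit, at -0.25 (59.9 and 24.9 TPM) and Ndufs7 at 0.10. In complex III Uqcrq was at 2.72 (100.7 and 336.7 TPM) and Uqcr11 at 1.21, with Cyc1, the cytochrome c1, at 0.19 and Uqcrc1 at 0.41. In complex IV Cox7a2 was at 1.65, Cox5a at 1.44, Ndufa4 at 0.69 and Cox7a2l at 0.65, so the lowest nuclear subunit stood above the highest mitochondrial one, mt-Co3 at -0.43. In ATP synthase Atp5g1, a ring subunit, was at 1.74, Atp5j2 at 1.36, Atp5l at 0.54 and Atp5s at -0.19.

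Complex II, succinate dehydrogenase, has no mitochondrially encoded subunit. Of its 4 genes Sdhc at 1.56 and Sdhb at 1.02 were at least 2-fold higher, against 16.0% of all genes, while Sdhd was at 0.59 and Sdha at -0.28. Their median was 0.80, and it was -0.18 without centring and -0.02 with ribosomal protein genes as the centre.

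**Figure D4:**
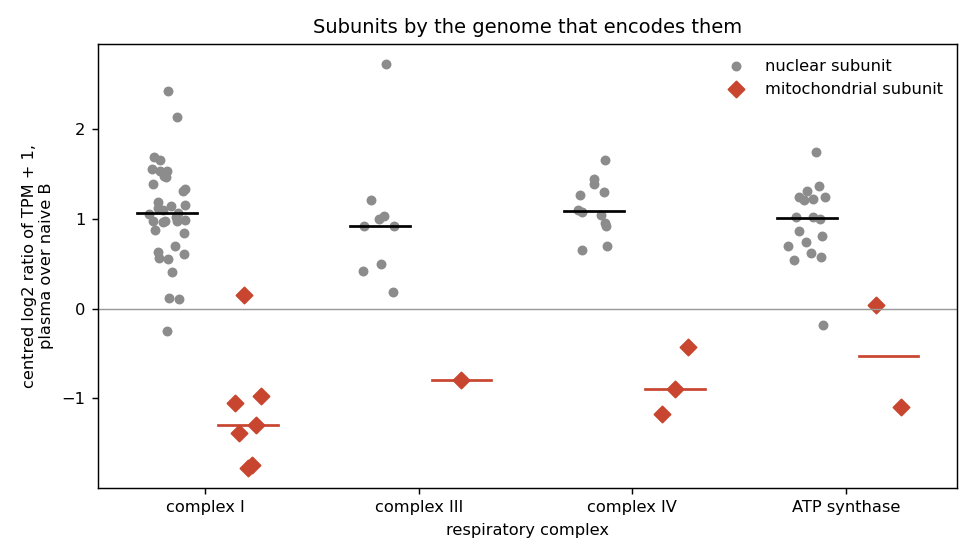
Centred log2 ratio of TPM + 1, plasma over naive B, for nuclear (grey circles) and mitochondrial (diamonds) subunits of 4 complexes, with lines at the medians. The nuclear medians lie between 0.92 and 1.08 and the mitochondrial medians between -1.29 and -0.53.

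The genes that transcribe and maintain mitochondrial DNA had medians below that of all genes tested, which was -0.23. Of 7 genes for transcription 0 were at least 2-fold higher and 2 were lower, against 16.0% and 22.1% of all genes, so the count of lower genes is near the general rate. Their median was -0.82. The lower ones were Mterf1a (17.8 TPM in the naive library and 2.45 TPM in the plasma library, -1.46) and Mterf2 (28.2 and 4.37 TPM, -1.46), both of the family of termination factors. Tfam, which packs the DNA and starts transcription, was at 119.8 and 30.5 TPM (-0.95), and Polrmt, the RNA polymerase, at 24.6 and 7.01 TPM (-0.69). The initiation factor Tfb2m was at -0.26 and the elongation factor Tefm at -0.39. The median was below 0 under all 9 settings tried, as were those of the next groups, replication and RNA processing. Several of these settings only shift every gene alike, so they are not separate checks.

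Of 14 tested genes for replication and the nucleoid 0 were higher and 5 lower, against 16.0% and 22.1% of all genes (median -0.67). Tk2, the thymidine kinase that supplies mitochondria with nucleotides, had the largest difference, from 96.1 to 3.96 TPM (-3.30). Rrm2b, a ribonucleotide reductase subunit, was at -1.73, and Polg, the DNA polymerase, at -1.09 (60.2 and 13.5 TPM). The helicase Twnk was at -0.42, and the highest were the single-strand binding protein gene Ssbp1 at 0.14 and the ligase gene Lig3 at 0.25.

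Genes for processing, stability and decay of mitochondrial RNA mostly lay within 2-fold of the median gene. Of 21 genes 2 were higher, 1 was lower and 18 lay between, with a median of -0.48. Both counts are under the general rates of 16.0% higher and 22.1% lower. Rexo2, an exonuclease that clears short RNA fragments, went from 46.5 to 180.0 TPM (2.92). Slirp, which binds and stabilises mitochondrial messages together with Lrpprc, was at 45.5 and 65.8 TPM (1.51), while Lrpprc itself was at 40.5 and 10.2 TPM (-0.90). Angel2 was lower at -1.46, Pnpt1, an RNA-degrading phosphorylase, was at -0.91, and Mtpap, the mitochondrial poly(A) polymerase, at -0.62 (28.7 and 8.76 TPM).

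The list for modification of mitochondrial transfer and ribosomal RNA had 0 of 23 genes higher and 2 lower, under the 16.0% and 22.1% of all genes. The lower ones were Mrm1 at -1.78 and Mterf3 at -1.26, and the highest were Trmt61b at 0.42 and Tfb1m at 0.63. Mterf3 belongs to the termination factor family of Mterf1a and Mterf2 above, so not every gene of this list modifies RNA itself. Among 14 genes for translation and membrane insertion 0 were at least 2-fold higher and 0 lower, against the same shares of all genes, 16.0% and 22.1%. They ran from Mtrf1l at -0.83 and Mtif3 at -0.66 to Cox18 at 0.45 and Mrrf at 0.46. Their medians were -0.32 and -0.39. Both medians were above 0 with TMM factors and with size factors from the median count ratio, so their side of 0 depends on the scaling. The median of all genes tested was then 0.17 and 0.20, above both, as it was on the centred scale at -0.23.

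Of 10 tested nuclear regulators of mitochondrial gene expression 0 were higher and 2 lower, which is near the 22.1% lower among all genes, of which 16.0% were higher. The lower ones were Sp1 at -1.25 and Esrra, the estrogen-related receptor alpha, at -1.04. Nrf1 and Gabpa, the main activators of nuclear genes for the respiratory chain, were at -0.08 and 0.17, Myc at 0.25, Gabpb1 at 0.39 and the coactivator Pprc1 at -0.80. The median of the 10 was -0.27, and it too was above 0 with those 2 scalings. It was then 0.14 and 0.17, under the 0.17 and 0.20 of all genes tested. Ppargc1a, the coactivator known from muscle and brown fat, was under the limit of 5 TPM in both libraries, at 2.45 TPM in the naive library and 0.0712 TPM in the plasma library, as was Ppargc1b at 3.53 and 0.287 TPM.

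Genes often used to stand for the amount of mitochondria had a median between those of all genes tested and of the nuclear subunits. Of 15 genes for outer membrane, import and chaperone proteins 3 were higher, near the 16.0% of all genes, and 0 lower, against 22.1%. Their median was 0.46, and it was below 0 without centring and with ribosomal protein genes as the centre. The higher ones included Timm23, the inner membrane import channel, at 1.29 (75.1 and 93.1 TPM) and Hspe1 at 1.10, while Vdac2 was at 0.09 and Timm44 at 0.00. Of 9 tested genes for the removal of mitochondria 3 were higher and 0 lower, against 16.0% and 22.1% of all genes (median 0.66, below 0 under the same 2 settings). They included the receptor gene Bnip3, at 11.1 and 39.7 TPM (2.74), and the cargo adaptor gene Sqstm1, at 144.1 and 295.5 TPM (2.02), with Fundc1 at 0.23 and Calcoco1 at -0.32.

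**Figure D5:**
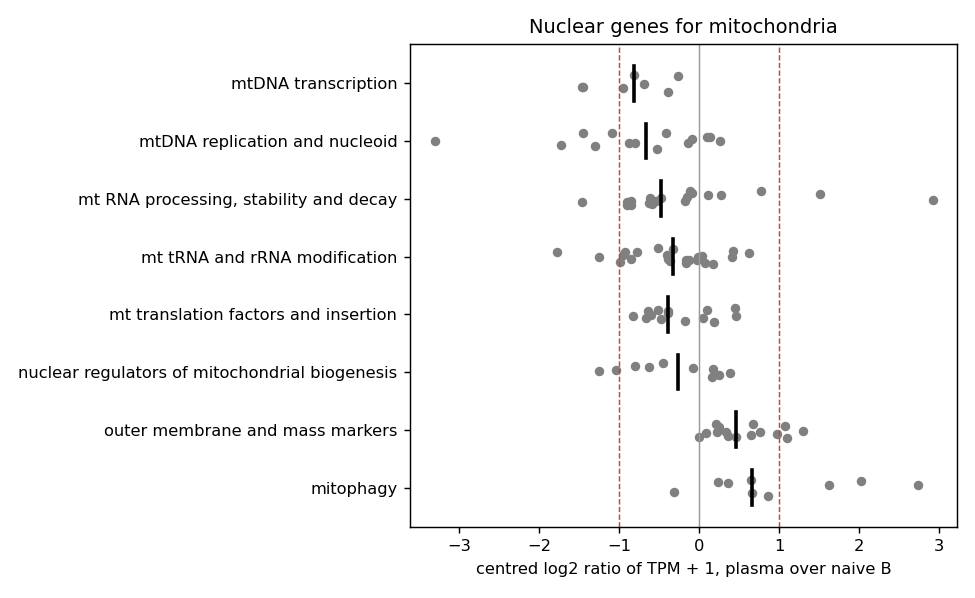
Centred log2 ratio of TPM + 1, plasma over naive B, for the tested nuclear genes of 8 lists, with a bar at each median and dashed lines at a 2-fold difference. The medians run from -0.82 for transcription of mitochondrial DNA to 0.66 for the removal of mitochondria.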

How the data were processed

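RNA-seq libraries of naive B cells and plasma cells, 1 each, were compared, and titles gave the groups. Total RNA was purified for poly(A), primed with random hexamers and marked for strand with dUTP, per the labels' protocols. Per the submitters' processing notes kallisto was among the tools and the build was mm9. Its version and transcript set were not stated there. Per the file headers, the deposited tables hold kallisto's estimated counts and TPM for 61112 transcripts, with an effective length that is the length minus 49 for 60997 of them and is equal in the libraries. The authors' fixed effective lengths leave the TPM of short genes such as mt-Atp8 dependent on the fragment length assumed. The protocols name no molecular identifiers, so reads may not be separate molecules, and intervals and limits cover counting error only.

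Transcripts were summed to genes. A gene reaching 5 TPM in either library was called when its centred log2 ratio (pseudocount of 1 TPM) lay 1 or more from 0. Exact Clopper-Pearson intervals used rounded estimated counts. Those of ratios between genes used the sum of the inverse counts. The counting interval of a tested nuclear gene of the lists, cell type markers apart, reached at most 0.384 to either side on the log2 scale. Among the tested markers it reached 1.91, for Csf1r, and it was not computed for those listed at 0 in plasma cells. Of 257 entries in 20 lists 246 were matched, by symbol or gene identifier. Coordinates and sequences are from GENCODE M21 (GRCm38), whose lengths equal the deposited ones for all 13 genes. TMM factors came from edgeR 4.0.16, and Python 3.11.15 was used for the rest. edgeR's test and DESeq2 could not be fitted with 1 library per group. The ratio and the 2-fold rule were tested on simulated counts with counting noise only. These were drawn around the naive values, with known changes put into a small part of the genes, equally up and down. That setting lacks the broad differences between these libraries, so it is no check on the centring used here. The members and lists were chosen with earlier results of these data known. Named were all members, a fixed panel, the nuclear copies, and of each nuclear list the 2 highest and 2 lowest tested ratios. The sequences shown, the returned reads and the pairs other than the overlapping ones were chosen after values were seen, as were the markers named at 0. Each deposited ATAC peak carries a score by the authors' peak caller, per the file rows, and only its chromosome was used.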

Additional observations from a re-analysis of the deposited data

How the results depend on the processing

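No paired analysis was possible because each group has 1 library, which also leaves no replicate to leave out. The lower library share held throughout: its log2 ratio was -1.97 and became -1.37 with estimated counts, -1.43 without immunoglobulin genes, -2.06 against nuclear protein-coding transcripts alone and -1.93 with annotated lengths. The 7 members at least 2-fold lower, against 22.1% of all genes, became 11 without centring (57.6%) and with centring on ribosomal protein genes (51.6%). They became 2 with TMM factors (12.7%) and with median-of-ratios size factors (12.1%), and 4 with counts per 1e6 reads (21.0%). With a pseudocount of 5 TPM they became 9 (12.1%). The higher part of all genes called was 42.0%, and 11.9%, 14.3%, 65.2%, 66.9% and 48.3% under the first 5 of these settings in turn. It was 52.8% with that pseudocount and 60.7% with no filter. The median member, at -1.05, was at -2.03, -1.87, -0.64, -0.61 and -0.86 under the same 5 settings, at -1.01 and -1.19 with a pseudocount of 0.1 and 5 TPM, and at -0.98 with reads of the nuclear copies returned. The 40 nuclear subunits at least 2-fold higher, against 16.0% of all genes, became 3 without centring (7.75%) and 3 with ribosomal protein genes (8.58%). They became 63 with TMM (23.7%) and 64 with size factors (24.4%). With a pseudocount of 0.1 TPM they became 47, against 1692 of 10219 genes, and with 5 TPM 27, against 1387 of 10219. The difference of mitochondrial and nuclear medians, -2.07, was -2.04 with counts and -2.00 with copies returned. The points moved between members, 9.58, were 7.93 with counts, 9.44 with annotated lengths, 9.42 with copies returned and 10.5 without mt-Co1. The log2 change of complex I over complex IV, -0.24, was -0.30 with counts and -0.28 with copies returned, and that of the mt-Nd6 share, 0.0092, was 0.0905 with counts. The alternatives with copies returned and without mt-Co1 were chosen after seeing the data. Shares by class of RNA had 1 class and gave no value. The causes of these shifts were not tested. mt-Nd3 and mt-Atp8 lay below 0 in 2 and 3 of 11 settings, and mt-Co3 in 10. The 10 other members were below 0 in all 11. These are not separate checks: they include the main setting and another equal to it, and the scalings shift every gene alike. Without centring the median of all genes tested was itself -1.22. For the median member counting error was far smaller than the shifts between scalings, but not than every shift listed. The counting interval of this member, mt-Nd1, was -1.07 to -1.03, and its value with a pseudocount of 0.1 TPM was -1.01.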

Other observations

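None of the accessible sites listed for these cells lay on mitochondrial DNA: 0 of 29868 ATAC peaks in naive B cells and 0 of 30475 in plasma cells. Reads of mitochondrial DNA are often discarded before peaks are called, and whether that was done is not given in the sources used here, so these lists carry no value for the number of mitochondrial genomes.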
